A study of Rattus norvegicus with 20 samples.

Results

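The liver response to oltipraz was examined by setting the 5 arrays of rats fed oltipraz against the 5 arrays of rats fed the unsupplemented diet, 10 of the 20 arrays in the series. The arrays were chosen by their labels. Oltipraz (OLT in the labels) is a dithiolethione that carries a methyl and a pyrazinyl group, and it was mixed into the feed at 500 mg per kg of diet. Control rats ate the same Harlan Teklad rodent feed as mash with nothing added. All rats were female Sprague Dawley rats fed for 24 days, without any genetic change, and each array holds liver RNA of 1 rat. Feed intake, rat age and the hour of day at which livers were taken are not given in the sources used here. The 5 rats on the parent compound D3T, the ring without the methyl and pyrazinyl groups, received a different dose, 600 mg per kg of diet. Their values are given side by side with those of the OLT rats near the end.

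Dithiolethiones are known for activating the transcription factor Nrf2. Reactive compounds modify cysteines of its inhibitor Keap1, Nrf2 then escapes degradation and binds antioxidant response elements together with small Maf proteins, and genes of conjugation, quinone reduction, glutathione synthesis and NADPH supply are transcribed. In rodent liver this response is known for its protection against aflatoxin, whose epoxide is conjugated by glutathione transferases and whose dialdehyde is reduced by Akr7a3. The fibrate-responsive receptor PPARa, the xenobiotic receptors AhR, CAR and PXR, and the heat shock factor Hsf1 control other gene groups that liver uses when diet or foreign compounds change.

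Values are probe set signals on the log2 scale, so a difference of 1 is a 2-fold change. Of 31042 probe sets, 12947 exceeded a log2 value of 4 in 5 or more of the 20 arrays and were tested, and they name 7837 genes. Signals near or below 4 lie close to the background that the authors' GCRMA step leaves, so the size of a difference that ends there rests on that background. A gene was called when its Benjamini-Hochberg adjusted p over all tested probe sets was under 0.05 in limma, fitted on all 20 arrays, and every adjusted p below comes from that limma fit. Where nothing else is said, values are given as mean ± SD with n = 5 rats per group. Arrays are named by their labels, so that OLT 1 is the array labelled as the first oltipraz rat.

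The tissue label was checked against marker genes. Of 12 hepatocyte markers 11 were measured, and their summed signal, as a log2 value, lay between 18.18 and 18.30 in OLT arrays and between 17.89 and 18.32 in control arrays. One of them, the asialoglycoprotein receptor subunit Asgr1, fell by 0.55 (adjusted p = 0.0139). The Asgr1 call was lost when each array was centred on its median. Of 12 pancreas markers 3 were measured, with a summed signal between 6.76 and 8.29 in OLT arrays and between 7.54 and 8.74 in control arrays. The arrays were also compared with each other. The array labelled OLT 1 had a mean correlation of 0.9658 with the D3T arrays and 0.9625 with the other OLT arrays, and its closest array was D3T 2. OLT 5 also correlated less with the other OLT arrays (0.9648) than with the control arrays (0.97), though its closest array was OLT 4. Each array was then placed between the means of OLT 2 to 5 (0) and D3T 1 to 4 (1), without the array itself. Only probe sets that differed between those arrays were used. OLT 1 and D3T 5 entered neither mean, so the scale was set without them. On it OLT 1 came out at 0.768, while OLT 2 to 5 lay between 0.038 and 0.193. The array labelled D3T 5 lay at 0.156 and the other D3T arrays between 0.849 and 0.921. Results were therefore also computed without the array labelled OLT 1, and a called gene was called without it too unless the loss of the call is stated.

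In all, 826 probe sets differed between OLT and control livers, 198 of them higher and 628 lower under OLT. These were 6.38% of those tested, 1.53% higher and 4.85% lower. By gene, 588 were called, 7.5% of the 7837 tested, of which 151 were higher (1.93%) and 437 were lower (5.58%). A change of at least 2-fold was found as well in 43 of the higher genes and 169 of the lower ones. Without the array labelled OLT 1, 389 genes were called (4.96%), 96 of them higher (1.22%) and 293 lower (3.74%). Without the arrays labelled OLT 1 and D3T 5, 426 genes were called (5.44%), 122 of them higher (1.56%) and 304 lower (3.88%). The surplus of decreases depends on the scaling: after centring each array on its median 461 genes were higher (5.88%) and 337 lower (4.3%), and after a further quantile normalization 374 were higher (4.77%) and 447 lower (5.7%). Centring moved the median difference of all genes by 0.17, from -0.05 to 0.12. All 5 OLT values lay above all 5 control values in 2.18% of genes and below them in 5.44%.

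Promoter stretches are shown for those named genes whose promoter holds the letters TGACTCAGC, a form of the antioxidant response element core, before the transcription start. The letters were searched on both strands in the 250 bases before to 50 bases after each start in the RefSeq promoter table (GRCr8), and this form was chosen after the values had been seen. Each stretch of 100 bases is printed along the gene's own strand, with the match in capitals.
Ephx1: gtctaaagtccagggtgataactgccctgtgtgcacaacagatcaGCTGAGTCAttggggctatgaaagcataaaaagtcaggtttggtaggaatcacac
Gstp1: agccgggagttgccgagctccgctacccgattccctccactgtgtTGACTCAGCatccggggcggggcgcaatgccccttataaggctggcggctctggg
Me1: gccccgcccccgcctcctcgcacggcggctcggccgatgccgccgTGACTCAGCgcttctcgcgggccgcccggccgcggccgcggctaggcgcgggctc
Zfand2a: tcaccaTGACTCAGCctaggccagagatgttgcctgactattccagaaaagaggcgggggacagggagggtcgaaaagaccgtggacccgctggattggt
The Ephx1 stretch lies at chr13:95263120-95263219 on the minus strand, and its match begins at position -57 from the start and reads on the opposite strand of the gene. The Gstp1 stretch lies at chr1:210769712-210769811 on the minus strand, with the match at -61. The Me1 stretch lies at chr8:96540357-96540456 on the minus strand, with the match at -167. The Zfand2a stretch lies at chr12:20275200-20275299 on the plus strand, with the match at -244. Ephx1 and Me1 were higher under OLT, Zfand2a was lower, and Gstp1 was not called. The letters occur in 0.415% of all promoters in the table and in 0.485% of the tested genes that have one. They were found in 2 of 136 genes higher under OLT (1.47%) and in 5 of 367 genes lower under OLT (1.36%). The looser core TGACNNNGC, which contains that form, occurs in 12.1% of all promoters and in 15.6% of the 6604 tested genes that have one. It was found in 22 of 136 genes higher under OLT (16.2%) and in 56 of 367 genes lower under OLT (15.3%), both close to the share among all tested genes. A match is a string of letters and says nothing of binding.

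The genes with the largest increases included a receptor ligand, enzymes of detoxification and a nuclear receptor. Efna1 (gene ID 94268), the ephrin A1 ligand of Eph receptor kinases, read 8.47, 8.27, 7.49, 8.14 and 8.05 in OLT 1 to 5, against 6.12, 5.48, 5.02, 4.84 and 5.60 in control 1 to 5. Each OLT array was above each control array, and the difference was 2.67 (SE 0.36, adjusted p = 2.62e-04), a 6.38-fold increase. A second Efna1 probe set differed by 2.87. The other 4 ephrin and Eph receptor genes measured were not called. Without the array labelled OLT 1 the Efna1 difference was 2.58.

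Akr7a3 (gene ID 26760), the aflatoxin aldehyde reductase, read 14.33, 11.45, 10.87, 10.68 and 11.21 in OLT 1 to 5, against 9.53, 8.54, 8.95, 9.24 and 9.47 in control 1 to 5. The array labelled OLT 1 was the highest by a wide gap, yet the other OLT arrays also lay above all controls. The difference was 2.57 (SE 0.61, adjusted p = 0.0166) with all arrays and 1.91 (adjusted p = 0.0293) without OLT 1. Ephx1 (gene ID 25315), microsomal epoxide hydrolase, read 14.71, 13.61, 13.29, 13.20 and 13.64 in OLT 1 to 5, against 12.14, 11.67, 12.22, 11.86 and 12.03 in control 1 to 5. Here too OLT 1 was highest and no OLT array overlapped the controls. The difference was 1.70 (SE 0.24, adjusted p = 3.18e-04) and 1.45 without OLT 1. Gstt3 (gene ID 499422), a theta class glutathione transferase, read 13.96, 12.70, 13.05, 12.92 and 12.96 in OLT 1 to 5, against 11.26, 11.18, 11.67, 11.15 and 11.81 in control 1 to 5. The groups lay apart, with a difference of 1.70 (adjusted p = 3.18e-04) and 1.49 without OLT 1.

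The remaining large increases were of genes with varied roles. Rnf125, a ubiquitin ligase, averaged 9.69 ± 0.70 in OLT livers and 7.48 ± 0.29 in control livers. Nr0b2, the small heterodimer partner that restrains bile acid synthesis, averaged 9.03 ± 0.73 in OLT livers and 7.08 ± 0.57 in control livers (adjusted p = 0.012). Both were higher in every OLT array than in any control array. Ddc, the aromatic amino acid decarboxylase, differed by 1.72 (adjusted p = 1.20e-04), and Fabp5, a fatty acid binding protein, by 1.73. Frat2, which binds glycogen synthase kinase 3, differed by 1.64, and Abtb3, which holds ankyrin repeats and a BTB domain, by 1.51, its control mean of 2.63 being near background. The beta tubulin Tubb2a read 10.64, 12.43, 10.66, 12.67 and 12.70 in OLT 1 to 5, against 10.09, 9.64, 9.92, 10.22 and 10.14 in control 1 to 5. OLT 1 and OLT 3 were low among the OLT arrays but still above all controls. The twelfth gene was Alas2, described with the red cell markers.

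**Figure D1:**
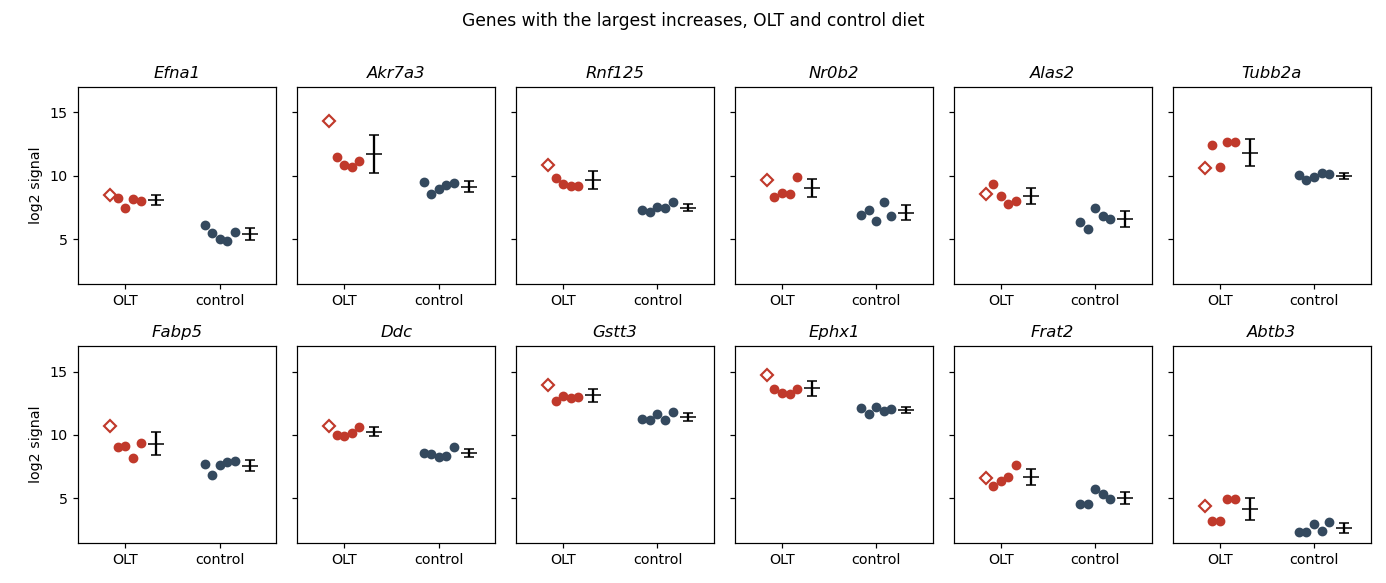
Log2 signal (vertical axis) of the 12 genes with the largest increases, in 5 OLT arrays and 5 control arrays each. Points are arrays, the open diamond is the array labelled OLT 1, and bars give mean ± SD. No OLT array overlaps a control array in any panel, a condition for being shown. OLT 1 is the highest OLT array for Efna1, Akr7a3, Rnf125, Fabp5, Ddc, Ephx1 and Gstt3.

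Glutathione transferases conjugate electrophiles with glutathione, and among the pathway lists they had the largest share of increases. Of 25 listed genes 18 were measured, 7 of these rose and none fell, against 1.93% of all genes that rose, and the median difference was 0.54. Without OLT 1, 6 rose, beside 1.22% of all genes. Gsta1, an alpha class enzyme, averaged 14.74 ± 0.17 in OLT livers and 14.22 ± 0.07 in control livers (difference 0.52, adjusted p = 9.71e-04). Gstm1, of the mu class, rose by 0.88 (adjusted p = 0.00638) and Gsta3 by 1.29 (adjusted p = 0.0205), both above all controls in each OLT array. Members of the alpha, mu and pi classes have close relatives, and their probes may not tell those apart.

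The pi class gene Gstp1, low in normal rat liver and known as a marker of altered foci, was not called. It read 15.26, 9.58, 9.62, 8.68 and 9.72 in OLT 1 to 5, against 7.59, 6.88, 7.89, 6.57 and 7.64 in control 1 to 5. Each OLT array was above the controls, but OLT 1 exceeded the other OLT arrays by more than those exceeded the controls. The difference was 3.26 (SE 1.01, adjusted p = 0.0598), and 2.09 (SE 0.72, adjusted p = 0.117) without OLT 1. When D3T 5 was left out as well, the same difference had an SE of 0.28 and was called (adjusted p = 3.68e-04). Gstp1 was also called as higher after centring, after quantile normalization, with a filter at log2 above 6, with array weights and without OLT 4. It was not called in 15 of 21 alternative settings. Akr1b8, an aldose reductase-like enzyme, showed the same pattern more strongly. It read 13.61, 5.55, 4.58, 6.20 and 4.46 in OLT 1 to 5, against 3.97, 3.85, 4.26, 4.30 and 3.82 in control 1 to 5, where it lay near background. Its difference of 2.84 (SE 1.54, adjusted p = 0.284) became 1.16 (adjusted p = 0.654) without OLT 1, and was not called without OLT 1 and D3T 5 either (adjusted p = 0.117).

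Nrf2 targets outside the transferases were mixed. Of 34 listed, 27 were measured, 6 rose and 1 fell, beside 1.93% and 5.58% of all genes, with a median difference of 0.45. Without OLT 1, 3 rose and 1 fell, beside 1.22% and 3.74% of all genes, with a median of 0.26. Besides Akr7a3 and Ephx1, Entpd5, a nucleoside diphosphatase, rose by 0.96 (adjusted p = 0.00888). The member that fell was Hmox1, heme oxygenase 1, which degrades heme: it averaged 6.16 ± 0.92 in OLT livers and 7.91 ± 0.69 in control livers, a difference of -1.74 (adjusted p = 0.0108), and -1.98 without OLT 1. The quinone reductase Nqo1 read 11.10, 9.07, 8.82, 9.53 and 9.52 in OLT 1 to 5, against 9.0, 8.18, 7.52, 8.78 and 8.74 in control 1 to 5. The groups overlapped, and its difference of 1.16 (SE 0.38) missed the threshold (adjusted p = 0.0723). Without OLT 1 the Nqo1 difference was 0.79 (adjusted p = 0.176). Nqo1 was called as higher after centring, after quantile normalization, with array weights and with a block on the replicate number. Gclc, the catalytic subunit of glutamate cysteine ligase that limits glutathione synthesis, read 10.85, 9.78, 9.89, 9.85 and 10.07 in OLT 1 to 5, against 10.26, 10.24, 9.76, 10.34 and 10.02 in control 1 to 5. Only OLT 1 exceeded the controls, and the difference was -0.03, with a 95% interval from -0.41 to 0.35.

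Genes that supply NADPH rose in part. Of 12 measured, 4 rose, beside 1.93% of all genes, and none fell, with a median of 0.38. Without OLT 1 only 1 of these calls was left, beside 1.22% of all genes that rose. That one was Aldh1l1, formyltetrahydrofolate dehydrogenase, which averaged 12.22 ± 0.69 in OLT livers and 10.99 ± 0.22 in control livers (adjusted p = 0.00788, and 0.0104 without OLT 1). Malic enzyme Me1 read 10.99, 9.61, 9.14, 9.62 and 9.91 in OLT 1 to 5, against 8.97, 8.29, 8.19, 8.60 and 8.80 in control 1 to 5. All OLT arrays were above all controls, with a difference of 1.28 (adjusted p = 0.0369) and 1.0 (adjusted p = 0.0987, and 0.0212 when D3T 5 was left out too) without OLT 1. Phosphogluconate dehydrogenase Pgd differed by 0.96 (adjusted p = 0.0484, and 0.114 without OLT 1), and the isocitrate dehydrogenase Idh1 by 0.33 (adjusted p = 0.0191, and 0.0539 without OLT 1). Of 26 glutathione and thioredoxin redox enzymes measured, glutathione synthetase Gss and thioredoxin Txn1 rose, by 0.51 and 0.46, beside 1.93% of all genes. The list's median was 0.00, and neither call was left without OLT 1. Of 19 aldo-keto and carbonyl reductases measured, Akr7a3 and Dcxr rose and Akr1c19 fell, beside 1.93% and 5.58% of all genes. The Dcxr and Akr1c19 calls were lost without OLT 1.

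The largest decreases were of a heat shock gene and a steroid hydroxylase. Hspa1a (gene ID 24472), the stress-inducible Hsp70 chaperone, read 6.02, 5.05, 5.18, 6.55 and 3.86 in OLT 1 to 5, against 9.14, 10.77, 10.10, 10.84 and 10.80 in control 1 to 5. No OLT array came near the controls, and the difference was -4.99 (SE 0.56, adjusted p = 5.36e-05), a 31.9-fold decrease. Hspa1a has a near-identical copy that probes may not tell apart. Cyp17a1 (gene ID 25146), the steroid 17-alpha-hydroxylase, read 2.43, 3.15, 2.46, 2.45 and 3.81 in OLT 1 to 5, against 8.30, 8.50, 8.84, 6.63 and 6.42 in control 1 to 5. All OLT arrays lay at background while the controls were clearly above it, and the fitted difference of -4.88 (SE 0.42, adjusted p = 5.28e-06) rests on that background level. Both differences changed little without OLT 1, to -5.17 for Hspa1a and -4.77 for Cyp17a1.

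Vnn1 (gene ID 29142), the pantetheinase vanin 1, read 4.91, 4.65, 4.71, 6.54 and 5.25 in OLT 1 to 5, against 9.10, 8.90, 8.89, 8.80 and 8.70 in control 1 to 5. The controls lay within a narrow range and all OLT arrays lay far below it, with a difference of -3.66 (SE 0.35, adjusted p = 8.61e-06), a 12.7-fold decrease. OLT 1 to 3 lay close to the level of the D3T arrays (4.66 ± 0.09), not far above background. The size of the Vnn1 decrease may therefore rest on that background. Nceh1, a neutral cholesterol ester hydrolase, averaged 5.29 ± 0.69 in OLT livers and 9.25 ± 0.34 in control livers. Aig1, which hydrolyses fatty acid esters of hydroxy fatty acids, averaged 4.37 ± 1.02 in OLT livers, near background, and 7.62 ± 0.36 in control livers. Zfand2a, an arsenite-inducible protein linked to the proteasome, averaged 6.22 ± 1.02 in OLT livers and 9.08 ± 0.33 in control livers. These 3 genes fell by 3.95, 3.26 and 2.85, in that order. Transcription factors were among the other large decreases: Srf, the serum response factor, fell by 2.26, the AP-1 subunit Jun fell by 2.17 and the clock repressor Per2 fell by 2.21. The ubiquitin ligase adaptor Spsb4 fell by 2.68, the regulator Tcim fell by 2.20, and the uncharacterised LOC100910424, whose OLT mean of 3.25 is at background, fell by 2.76. Of the 12 largest increases and 12 largest decreases together, 22 were called under each alternative setting in which they were tested, and Abtb3 and Tubb2a under all of those but a fit of OLT and control arrays alone. Being called without OLT 1, with no overlap between groups, was a condition for being listed, so that setting was passed in advance. Abtb3 and LOC100910424 were not tested under the filter at log2 above 6, which they do not pass.

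**Figure D2:**
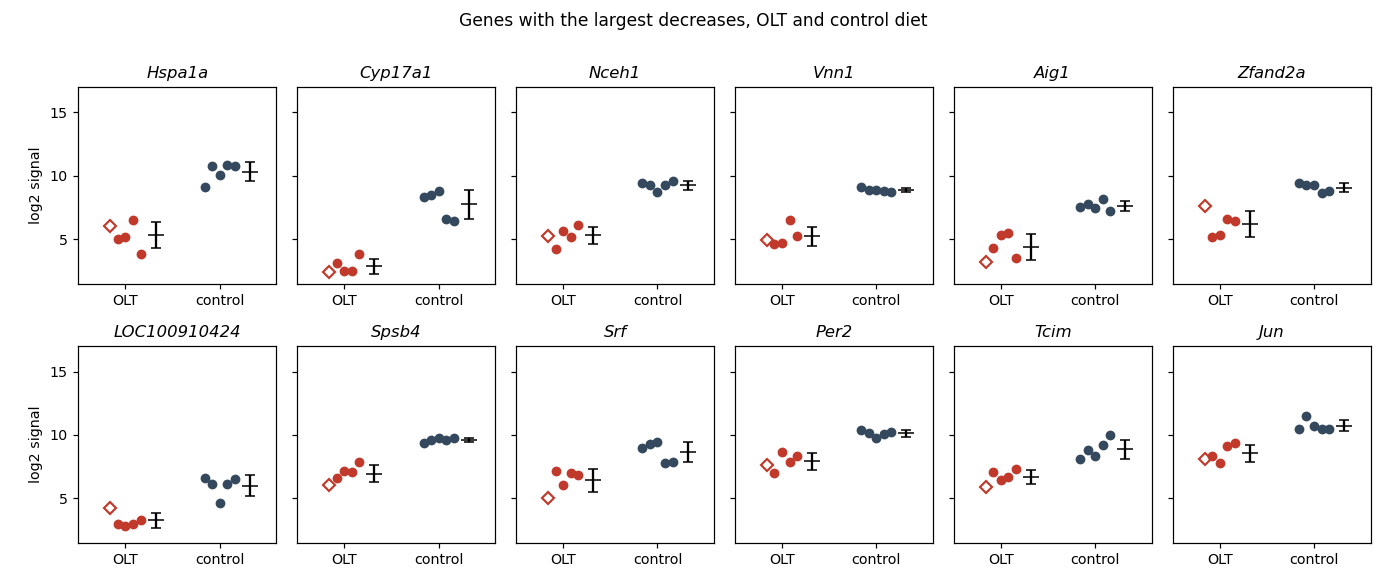
Log2 signal (vertical axis) of the 12 genes with the largest decreases, in 5 OLT arrays and 5 control arrays each. Points are arrays, the open diamond is the array labelled OLT 1, and bars give mean ± SD. For Cyp17a1 the OLT arrays sit between 2.43 and 3.81, and for Vnn1 the controls sit between 8.70 and 9.10.

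Cytosolic heat shock genes encode chaperones under Hsf1. Of 24 listed, 19 were measured, 6 fell and none rose, against 5.58% of all genes that fell, and 5 fell without OLT 1. The median difference was -0.25. Dnajb1, an Hsp40 co-chaperone, read 9.68, 9.84, 9.47, 9.68 and 9.52 in OLT 1 to 5, against 11.18, 11.27, 11.13, 11.18 and 11.46 in control 1 to 5. Both groups were tight and apart, with a difference of -1.61 (SE 0.16, adjusted p = 8.61e-06). Dnajb4, of the same family, fell by 1.87 (adjusted p = 3.15e-04) and Bag3, an Hsp70 co-chaperone of selective autophagy, fell by 1.65 (adjusted p = 3.16e-04). After centring 5 fell and 1 rose, beside 4.3% and 5.88% of all genes. After quantile normalization 6 fell, beside 5.7%.

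Genes of the unfolded protein response, which adjusts the folding capacity of the endoplasmic reticulum, changed in a few members. Of 25 measured, 4 fell, beside 5.58% of all genes, and none rose. The same number fell without OLT 1, beside 3.74% of all genes. After centring or quantile normalization 3 fell, beside 4.3% and 5.7% of all genes. Herpud1, which takes part in degradation at the endoplasmic reticulum, read 11.92, 9.46, 9.97, 9.27 and 10.73 in OLT 1 to 5, against 12.44, 12.35, 12.12, 12.22 and 12.20 in control 1 to 5. OLT 1 was the OLT array nearest the controls. The difference was -2.00 (adjusted p = 0.00507) with all arrays and -2.41 (adjusted p = 2.99e-04) without OLT 1. The co-chaperone Dnajb9 fell by 1.92 (adjusted p = 0.00372), the mannosidase-like Edem1 fell by 0.85 (adjusted p = 0.0167) and the transcription factor Ddit3 fell by 0.98 (adjusted p = 0.0292). The list's median of -0.05 equals that of all genes, and it was 0.12 after centring.

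Fatty acid oxidation was the list with the largest number of decreases. Of 39 listed genes, many of them known PPARa targets, 31 were measured. Of these 11 fell, beside 5.58% of all genes, and none rose. Without OLT 1, 10 fell, beside 3.74% of all genes. The median difference was -0.42 beside -0.05 for all genes, and 27 of the 31 differences were negative. After centring 11 fell, beside 4.3% of all genes, and after quantile normalization 12 fell, beside 5.7%. Cpt1a (gene ID 25757), which admits long-chain fatty acids to mitochondria, read 9.61, 10.36, 10.33, 10.19 and 10.06 in OLT 1 to 5, against 12.17, 12.16, 12.30, 12.02 and 11.92 in control 1 to 5. The groups lay far apart, with a difference of -2.00 (SE 0.28, adjusted p = 3.18e-04), and a second probe set differed by -2.60. Ech1, a dienoyl-CoA isomerase, averaged 10.59 ± 0.40 in OLT livers and 12.14 ± 0.25 in control livers (adjusted p = 2.58e-04). Cyp4a1, a fatty acid omega-hydroxylase with close relatives, averaged 11.45 ± 0.19 in OLT livers and 12.48 ± 0.25 in control livers (adjusted p = 1.74e-04). Hadha and Hadhb, the subunits of the mitochondrial trifunctional protein, fell by 0.84 and 0.92, and the carnitine palmitoyltransferase Cpt2 fell by 0.85; these 3 were named after their values were seen. Every member called as lower fell by at least 0.61.

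Vnn1 is also a member of this list and of the list of coenzyme A metabolism, where 3 of 9 measured genes fell, beside 5.58% of all genes. The other two were Ppcs, which makes phosphopantothenoylcysteine, with a fall by 0.68 (adjusted p = 0.00398), and Nudt7, a peroxisomal coenzyme A hydrolase, with a fall by 0.89 (adjusted p = 0.0352). The Nudt7 call was lost without OLT 1 (adjusted p = 0.089). Of 12 lipid ester hydrolases measured, Nceh1 and the triglyceride lipase Pnpla2 fell, beside 5.58% of all genes, and none rose. Pnpla2 averaged 8.10 ± 0.22 in OLT livers and 8.97 ± 0.17 in control livers (adjusted p = 0.00372).

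Few fatty acid synthesis genes were called. Of 26 genes measured, 4 rose and none fell, beside 1.93% of all genes that rose, with a median of 0.32, and 2 rose without OLT 1, beside 1.22% of all genes. Malic enzyme Me1, described above, was one of the 4. Srebf1, the transcription factor that drives lipogenic genes, read 11.18, 11.04, 11.04, 10.84 and 11.36 in OLT 1 to 5, against 10.14, 9.94, 9.93, 10.00 and 10.00 in control 1 to 5. The groups were narrow and apart, with a difference of 1.09 (SE 0.19, adjusted p = 0.00168) and 1.07 without OLT 1. The desaturase Fads1 averaged 12.61 ± 0.20 in OLT livers and 11.79 ± 0.28 in control livers (adjusted p = 9.89e-04). The acetyl-CoA synthetase Acss2 rose by 0.68 (adjusted p = 0.0407), and this call was lost without OLT 1 (adjusted p = 0.0905). Of 20 cholesterol synthesis and uptake genes measured, only the reductase Dhcr7 was called, at 0.99 (adjusted p = 0.0218), and not without OLT 1 (adjusted p = 0.0647).

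Bile acid genes changed in 4 of 18 measured members, beside 7.5% of all genes: 1 rose and 3 fell. The same number of calls was made without OLT 1. Besides the rise of Nr0b2, the sterol 12-alpha-hydroxylase Cyp8b1 averaged 12.21 ± 0.41 in OLT livers and 13.10 ± 0.39 in control livers (adjusted p = 0.0238). Cyp27a1, the mitochondrial sterol 27-hydroxylase, fell by 0.49 (adjusted p = 0.00288) and the bile acid ligase Slc27a5 fell by 0.82 (adjusted p = 0.00331). After centring 1 member fell in place of 3, beside 4.3% of all genes. Cyp7a1, which sets the pace of bile acid synthesis, read 12.48, 11.73, 13.25, 12.88 and 12.73 in OLT 1 to 5, against 11.33, 10.29, 12.74, 11.24 and 13.08 in control 1 to 5. The control values were widely spread, the groups overlapped, and the difference of 0.87 (95% interval from -0.24 to 1.99) was not called (adjusted p = 0.337).

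Cytochrome P450 genes of the xenobiotic receptors were mostly not called. None of 7 measured AhR targets and regulators passed the limma test, with or without OLT 1, beside 7.5% and 4.96% of all genes. With all arrays 3 had an unadjusted p under 0.05, beside 1906 of the 7837 genes tested. Without OLT 1 and D3T 5, Cyp1a1 and Cyp1a2 were called as higher. After centring or quantile normalization the 1 member called was Nqo1, which is also on this list. Of all genes 5.88% and 4.77% were then higher. Cyp1a1, the classic AhR target, read 3.97, 6.00, 9.97, 10.28 and 7.32 in OLT 1 to 5, against 3.99, 5.61, 4.37, 5.76 and 6.59 in control 1 to 5. OLT 3, OLT 4 and OLT 5 lay above all controls, OLT 2 lay among them, and OLT 1 was at background, as was control 1. The difference was 2.25 (SE 1.01, adjusted p = 0.193) with all arrays and 3.13 (adjusted p = 0.0586) without OLT 1, with an adjusted p of 0.0201 when D3T 5 was left out too. Cyp1a2, constitutive in liver, averaged 14.29 ± 0.28 in OLT livers and 13.88 ± 0.21 in control livers (adjusted p = 0.189, and 0.0107 without OLT 1 and D3T 5).

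Of 16 measured genes tied to CAR and PXR, 2 fell and none rose, also without OLT 1, beside 5.58% of all genes that fell, and 3.74% without OLT 1. Por, the reductase that passes electrons to microsomal P450 enzymes, read 11.57, 10.87, 11.41, 11.09 and 11.20 in OLT 1 to 5, against 11.94, 12.16, 12.36, 12.37 and 13.00 in control 1 to 5. All OLT arrays were below all controls, with a difference of -1.14 (SE 0.22, adjusted p = 0.00406). Nr1i2, the receptor PXR itself, averaged 8.87 ± 0.37 in OLT livers and 9.61 ± 0.16 in control livers (adjusted p = 0.00462). Cyp2b1 and Cyp2b2, the usual CAR readouts, had no tested probe set naming them alone and were not measured. Among 21 other P450 genes measured, Cyp17a1 and Cyp4a1 fell as described, Cyp4f1 rose by 0.38 and Cyp2c12, a female-specific form, by 0.37, and neither increase was called without OLT 1 (adjusted p = 0.0618 and 0.0741). Cyp2d3, named here after its values were seen, fell by 0.65 and was likewise not called without OLT 1. These 2 increases and 3 decreases among the other P450 genes stand beside 1.93% and 5.58% of all genes. Sult1c3, a sulfotransferase, read 3.55, 7.27, 7.70, 5.95 and 4.93 in OLT 1 to 5, against 8.0, 8.54, 8.56, 8.74 and 9.52 in control 1 to 5. OLT 1 was the lowest, the groups were apart, and the adjusted p was 0.0219 with all arrays and 0.0604 without OLT 1, and 0.0185 when D3T 5 was left out too.

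**Figure D3:**
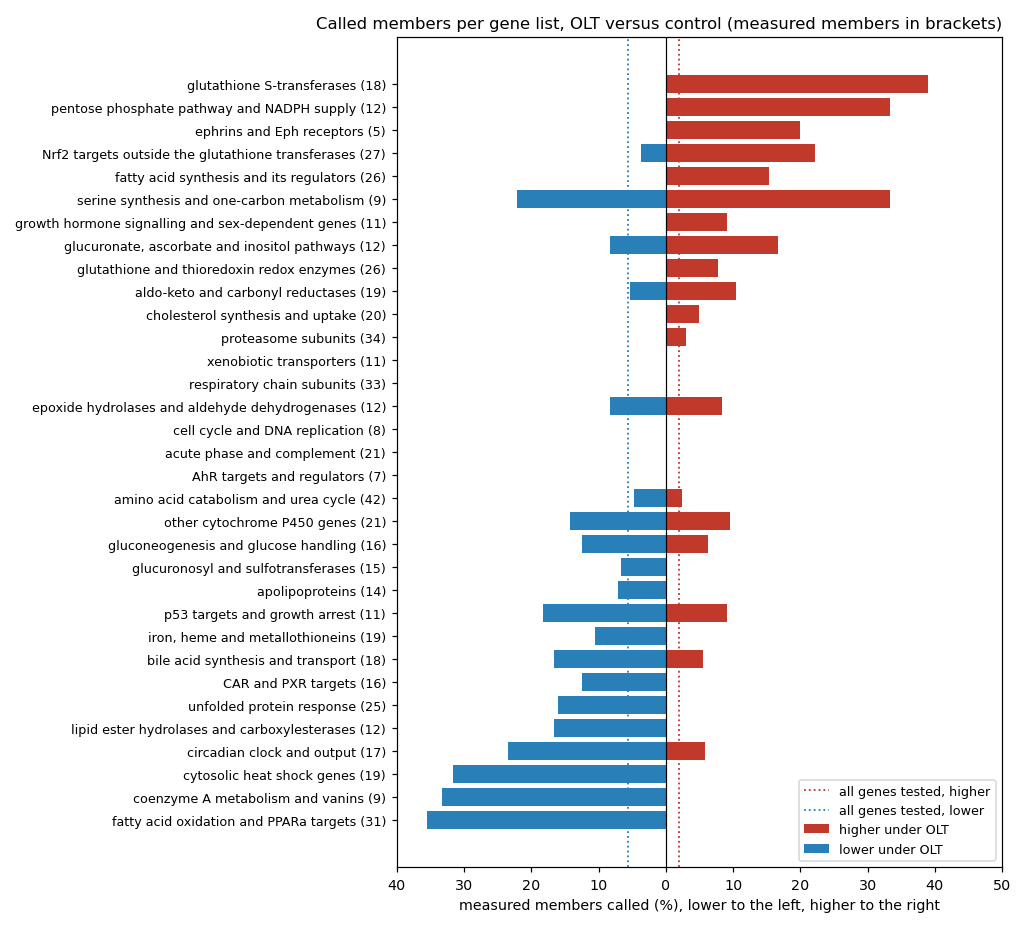
Share of measured members called in each gene list (horizontal axis, %; higher under OLT to the right, lower under OLT to the left), with the number measured in brackets. Dotted lines give the shares among all genes, 1.93% higher and 5.58% lower. Glutathione transferases reach 38.9% higher and fatty acid oxidation 35.5% lower.

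Markers of other cell types were read in the same fit. In whole liver, fewer cells of a type and less RNA per cell cannot be told apart. Of 19 macrophage and Kupffer cell markers 16 were measured, and their summed log2 signal lay between 11.43 and 12.85 in OLT arrays and between 12.16 and 12.94 in control arrays. Only the scavenger receptor Cd163 fell (adjusted p = 0.0254, and 0.0685 without OLT 1), while the median difference was -0.48 and 15 of 16 differences were negative. The defining markers Marco, Vsig4 and Timd4 had no tested probe set. Of 9 red cell markers 2 were measured and both rose. Alas2, the red cell form of the first heme synthesis enzyme, read 8.60, 9.36, 8.39, 7.77 and 8.0 in OLT 1 to 5, against 6.32, 5.77, 7.43, 6.81 and 6.61 in control 1 to 5. All OLT arrays were above all controls (difference 1.84, adjusted p = 0.00968). The beta globin gene Hbb averaged 13.94 ± 0.40 in OLT livers and 12.84 ± 0.55 in control livers (adjusted p = 0.0206, and 0.057 without OLT 1). Their part in the other results was not tested.

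None of the measured stellate cell (12 of 18), endothelial (7 of 15), cholangiocyte (3 of 12), lymphocyte (2 of 16) or neutrophil (1 of 8) markers was called by limma. None had an unadjusted p under 0.05. Their summed signals overlapped between OLT and control arrays. The neutrophil marker S100a8 (means of 3.95 in OLT and 3.74 in control livers) and the cholangiocyte marker Aqp1 (2.76 and 3.05) lay near background. With so few members measured, the cholangiocyte, lymphocyte and neutrophil lists say little of those cells. Of 11 pericentral hepatocyte markers only Cyp27a1 was called, as lower, and this call was lost after centring. In limma 7 of the 11 had an unadjusted p under 0.05, beside 1906 of the 7837 genes tested. The list's median difference was -0.49 and 8 of 11 differences were negative. Of 12 periportal markers none was called by limma (4 at an unadjusted p under 0.05), and the median difference was 0.10. The part of these shifts in the results on metabolic genes was not tested.

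Leaving out the array labelled OLT 1 removed 225 of the 588 called genes, all of which kept the sign of their difference, and added 26. The other 363 were called the same way, 85 higher and 278 lower. Among the lost calls was Cryl1, a crystallin of the glucuronate pathway, which read 10.69, 6.61, 6.74, 7.33 and 7.66 in OLT 1 to 5, against 5.71, 5.13, 4.86, 5.91 and 5.14 in control 1 to 5. OLT 1 was highest, all OLT arrays were above all controls, and the adjusted p was 0.0491 with all arrays and 0.117 without OLT 1. Psat1, the serine synthesis aminotransferase, differed by 2.44 with all arrays and by 2.04 without OLT 1 (adjusted p = 0.0921). Its control mean of 2.52 lay at background. The clock-controlled deadenylase Noct differed by -2.30 and -2.33, and the zinc finger gene Zfp354a by -2.19 and -2.01. These 2 differences moved by less than their SE. The SE was smaller without OLT 1 in 60 of the 225 lost genes. When the array labelled D3T 5, which enters the shared error, was left out as well, 28 of the 225 were called again and 197 were not. Cryl1 (adjusted p = 2.95e-04), Psat1 (0.0255) and Noct (0.0465) were among those called again, and Zfp354a (0.0932) was not.

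Among the gained calls was Nupr1, a stress-induced nuclear protein, which read 11.47, 6.97, 7.52, 7.34 and 8.17 in OLT 1 to 5, against 10.19, 9.40, 9.73, 8.39 and 9.06 in control 1 to 5. OLT 1 was above all controls and the other OLT arrays below all of them. The difference was -1.06 (adjusted p = 0.338) with all arrays and -1.85 (adjusted p = 0.0171) without OLT 1. Smaller gains were Ccdc149 (-0.99), the ribosome rescue factor Pelo (-0.90), Plxna2, a semaphorin receptor (0.84), and Tatdn1 (-0.72), each difference given without OLT 1.

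**Figure D4:**
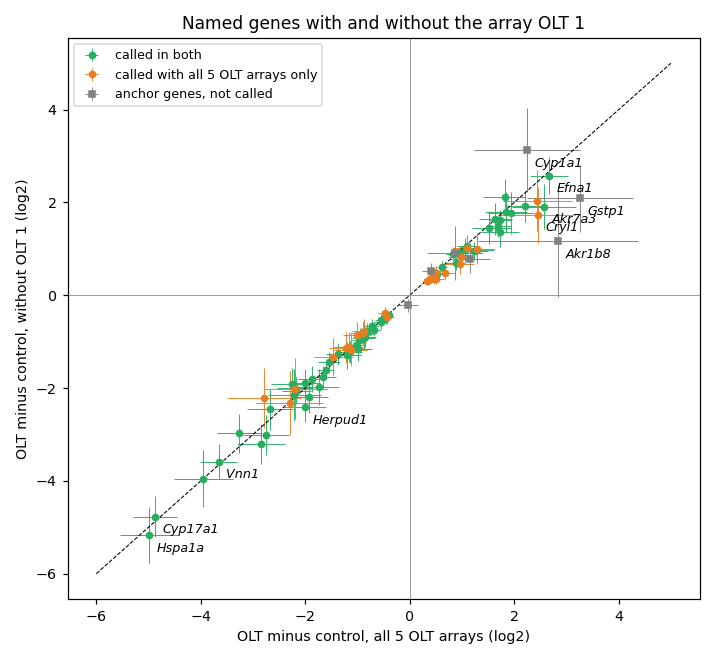
Difference between OLT and control (log2) for the named genes that were called and the anchor genes that were not, without the array labelled OLT 1 (vertical axis) against all 5 OLT arrays (horizontal axis). Bars are standard errors and the dashed line marks equal values. Akr1b8 moves from 2.84 to 1.16 and Gstp1 from 3.26 to 2.09, while Hspa1a stays near -5 at -5.17.

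OLT and D3T differ by the methyl and pyrazinyl groups, and also in dose (500 and 600 mg per kg of diet), so the effects of structure and dose cannot be told apart, and their values are set side by side. Both groups were set against the same control rats. Gstp1 read 15.09, 15.28, 14.89, 14.79 and 10.30 in D3T 1 to 5. D3T 5 stood with the OLT arrays other than OLT 1, and the remaining D3T arrays stood with OLT 1. Akr1b8 read 13.61, 13.82, 13.86, 13.42 and 5.77 and Akr7a3 13.88, 14.29, 14.17, 13.82 and 11.35 in D3T 1 to 5. The same arrangement held for both. Nqo1 read 11.51, 10.98, 10.96, 11.00 and 9.84 in D3T 1 to 5, where D3T 5 was again the lowest.

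Herpud1 read 11.67, 11.54, 11.69, 12.06 and 10.31 and Nupr1 10.32, 10.70, 10.80, 10.69 and 8.98 in D3T 1 to 5. In both genes D3T 5 was the lowest D3T array, and in both OLT 1 was the highest OLT array. Cyp1a1 read 5.76, 4.00, 3.98, 3.97 and 8.31 in D3T 1 to 5. Only D3T 5 exceeded all control arrays. Hspa1a read 4.30, 4.04, 6.52, 5.80 and 3.65, Cyp17a1 3.25, 2.37, 3.18, 3.07 and 2.67 and Vnn1 4.57, 4.66, 4.79, 4.69 and 4.58 in D3T 1 to 5. In these 3 genes all D3T arrays, like all OLT arrays, lay below all controls. Efna1 read 8.16, 7.74, 8.68, 8.11 and 9.06 in D3T 1 to 5, above all controls like the OLT arrays. Of the 18 measured glutathione transferases 12 rose under D3T, and of the 31 fatty acid oxidation genes 15 fell and 2 rose, beside 5.6% of all genes that rose and 7.45% that fell in D3T against control.

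**Figure D5:**
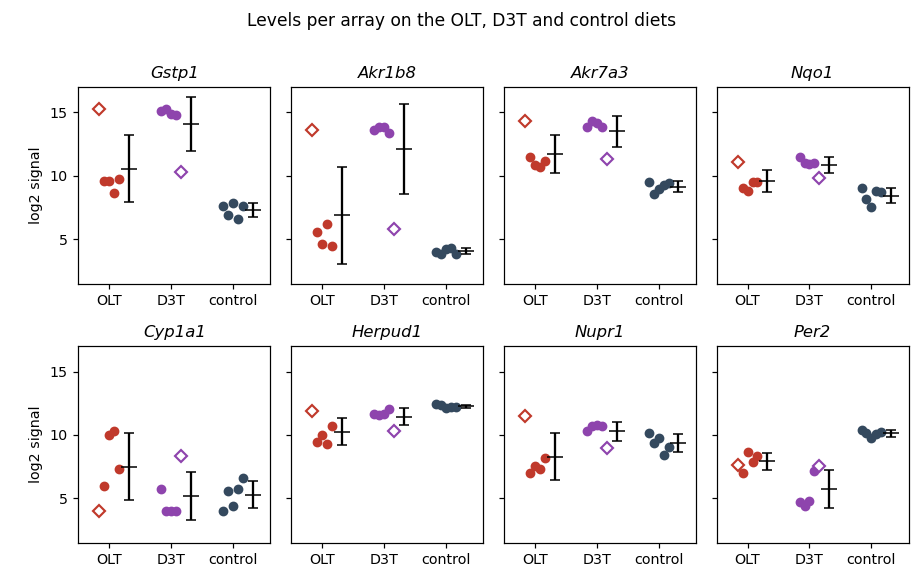
Log2 signal (vertical axis) of 8 genes in OLT, D3T and control arrays, 5 each. Points are arrays, open diamonds are the arrays labelled OLT 1 and D3T 5, and bars give mean ± SD. For Gstp1, Akr1b8 and Akr7a3 the open diamond of each diet lies among the filled points of the other dithiolethione or near them.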

How the data were processed

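Liver RNA of 20 rats was measured on 1-colour Affymetrix arrays. Per the submitters' processing notes, GCRMA was used by the authors to correct background, normalize arrays and summarize probes; no version is given in the sources used here. The deposited values are log2 probe set signals and were used as given. Neither scan dates nor detection calls come with them, so batches could not be looked for.

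Probe sets above 4 in at least 5 arrays were kept. The platform annotation names 1 gene for 10047 of the 12947 kept probe sets, several for 295 and none for 2605; symbols were updated through the RefSeq gene table. The kept probe set with the highest mean stands for a gene. For 12 called named genes other probe sets were kept, all with a difference of the same sign. Those of Edem1, Entpd5, Me1, Por, Ppp1r3b and Slc40a1 were not all called. Limma 3.58.1 in R 4.3.3 (lmFit, eBayes with an intensity trend, a mean per diet, two-sided) gave differences, standard errors and p-values adjusted over kept probe sets. They measure the spread between rats, and 5 rats per group limit the precision. The fit was tested on simulated data.

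The members and the gene lists were chosen with earlier results of these data known. Named genes were 15 anchors; the 12 largest increases and the 12 largest decreases among genes called with and without OLT 1 and with no overlap between groups; up to 4 called members per list (2 with the smallest adjusted p where none was called); and up to 5 calls lost or gained without OLT 1. Alternatives were centring, quantile normalization, no filter or one at log2 above 6, eBayes with no trend or a robust prior, array weights, fitting only the groups compared, blocking on the replicate number, leaving out arrays, and averaging the probe sets of a gene.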

Additional observations from a re-analysis of the deposited data

Results flagged for a closer look

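Each named gene was looked at for a single array far from the other 4 of its group, by Dixon's test at the 95% level, in 242 groups of 5 (OLT and control). In all 20 were found, 13 among OLT and 7 among control groups. Chance alone gives about 1 in 20 groups, but that rate does not apply here, since some genes were named because a call depends on OLT 1 or with their values known. Of the 13 in OLT, 10 were the array labelled OLT 1.

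In the array labelled OLT 1 the value was the highest of the group in all 10 cases: 15.26 for Gstp1, 14.33 for Akr7a3, 13.96 for Gstt3, 13.61 for Akr1b8, 12.02 for Gsta3, 11.91 for Acss2, 11.47 for Nupr1, 11.15 for Pgd, 10.85 for Gclc and 10.69 for Cryl1. OLT 5 was the highest for Il6r, the interleukin 6 receptor (10.35), and for Nr1i2 (9.50). OLT 3 was the lowest for Mat2a, a methionine adenosyltransferase (8.03).

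Among the controls, control 2 was high for Jun (11.47) and low for Fabp5 (6.80), and control 1 was high for Akr1c19 (6.40). Control 3 was high for the smooth muscle actin gene Acta2 (8.62) and low for LOC100910424 (4.63), Plxna2 (5.39) and the respiratory chain subunit Uqcrfs1 (11.00).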

How the results depend on the processing

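The 826 probe sets called between OLT and control became 1132 after centring (635 higher, 497 lower), 1157 after quantile normalization (505 higher, 652 lower), 457 without the filter on low values, 382 in a fit of OLT and control arrays alone and 2054 with array weights. The count was 594 without the arrays labelled OLT 1 and D3T 5. Leaving out 1 array at a time gave 523 to 1310 calls: 523 without control 1, 524 without control 2, 544 without control 5, 532 without OLT 1 and 1310 without OLT 5. Of 121 named genes 88 were called, with 66 to 90 when 1 array was left out, 61 without the filter and 56 in the fit of OLT and control alone. Of all measured list genes 88 were called, with 60 to 107 when 1 array was left out, 55 without the filter, 55 in the fit of OLT and control alone and 170 with array weights. None of these 88 named genes changed sign under the alternatives in which it was tested, and 47 were called under each of those. The filter at log2 above 6 left out 9 of the 121. The uncalled Gclc changed sign, from -0.03 to 0.14 after centring and 0.04 after quantile normalization.

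Between OLT and D3T, where compound and dose cannot be told apart, limma called 0 probe sets (1385 at an unadjusted p under 0.05), also 0 with a robust prior. Array weights gave 112, and leaving out 1 array gave 0 to 236: 131 without OLT 1, 236 without D3T 5 and 1 without D3T 4. Leaving out OLT 1 and D3T 5 together gave 549. As these arrays were left out because of where they lie between the groups, these counts are descriptions. The cause was not tested. The sources used here do not say that rats of the same replicate number belong together. Same-number correlations of OLT with control arrays were -0.14 to 0.203, which cannot decide whether rats were paired. With the number as a replicate block, 870 probe sets were called between OLT and control. Signals near background limit the size of changes that end there.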

Other observations

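Clock genes, which drive daily rhythms, were lower in 4 of 17 measured members and higher in 1, beside 5.58% and 1.93% of all genes, with a median difference of -0.19. The nuclear receptor Nr1d1, named after its values were seen, rose by 0.94. Besides Per2 and Noct, the repressors Per1 and Nfil3 fell by 1.13 and 1.16. Without OLT 1 only the Per2 call was left. Per2 read 7.63, 6.98, 8.69, 7.90 and 8.35 in OLT 1 to 5, 4.73, 4.37, 4.79, 7.19 and 7.55 in D3T 1 to 5 and 10.39, 10.19, 9.72, 10.07 and 10.23 in control 1 to 5. The hour of sampling is not given in the sources used here, and its part was not tested.

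Serine and one-carbon metabolism changed in both directions. Of 9 genes measured, 3 rose and 2 fell, beside 1.93% and 5.58% of all genes. Shmt2, the mitochondrial serine hydroxymethyltransferase, averaged 10.74 ± 0.14 in OLT livers and 10.30 ± 0.03 in control livers (adjusted p = 0.01). Mat2a, which makes S-adenosylmethionine, averaged 8.34 ± 0.18 in OLT livers and 9.30 ± 0.29 in control livers (adjusted p = 9.95e-04). Ahcy, which hydrolyses S-adenosylhomocysteine, averaged 11.92 ± 0.20 in OLT livers and 12.38 ± 0.14 in control livers (adjusted p = 0.0113), and its call was lost after centring. Of 42 measured genes that break down amino acids or belong to the urea cycle, ornithine transcarbamylase Otc rose by 0.50, and argininosuccinate lyase Asl and cysteine dioxygenase Cdo1 fell by 0.43 and 0.39; the 3 calls compare with 7.5% of all genes. Of these only the Cdo1 call was left without OLT 1. After centring 3 members were higher and none lower, beside 5.88% and 4.3% of all genes. Cdo1 was then not called (-0.23, adjusted p = 0.346).

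Of 16 genes of glucose handling, 3 that act on glycogen were called, beside 7.5% of all genes. The phosphorylase Pygl averaged 10.88 ± 0.09 in OLT livers and 10.27 ± 0.13 in control livers (adjusted p = 9.95e-04). The synthase Gys2 averaged 9.38 ± 0.30 in OLT livers and 10.59 ± 0.39 in control livers (adjusted p = 0.0112), and the phosphatase subunit Ppp1r3b, which activates it, fell by 0.87 (adjusted p = 0.035, and 0.0913 without OLT 1). Among 11 p53 targets, Bbc3 rose by 1.05, and Gadd45a and Plk2 fell by 1.37 and 1.01, beside 1.93% and 5.58% of all genes. The Plk2 call was lost without OLT 1 (adjusted p = 0.089). Among 19 genes of iron, heme and metallothioneins 2 fell, Hmox1 and the iron exporter Slc40a1, beside 5.58% of all genes. Slc40a1 averaged 10.18 ± 0.20 in OLT livers and 10.90 ± 0.12 in control livers (adjusted p = 3.15e-04). Its other probe sets differed by -1.08 (adjusted p = 0.0055) and -0.30 (adjusted p = 0.613). In the glucuronate and inositol pathways, the inositol oxygenase Miox averaged 7.66 ± 0.32 in OLT livers and 8.62 ± 0.33 in control livers (adjusted p = 0.00131).

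Several lists had few or no calls. None of 21 acute phase and complement genes, 33 respiratory chain subunits, 11 xenobiotic transporters or 8 cell cycle genes was called by limma. Among all genes 7.5% were called. In that order, 5, 7, 4 and 2 members of these lists had an unadjusted p under 0.05, beside 1906 of the 7837 genes tested. Of 34 proteasome subunits only Psmb5 was called, at 0.45 (adjusted p = 0.0228, and 0.0618 without OLT 1), and of 14 apolipoprotein genes only Lcat, which fell by 0.47 and was not called without OLT 1 (adjusted p = 0.0928). Of 12 epoxide hydrolases and aldehyde dehydrogenases, Ephx1 rose and Aldh3a2 fell by 0.55, beside 1.93% and 5.58% of all genes. The Aldh3a2 call was lost after centring (adjusted p = 0.0856).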
